A study of Mus musculus with 4 samples.

Results

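The 9 genes that encode the subunits of the AMPA receptor (Gria1, Gria2, Gria3 and Gria4) and of the kainate receptor (Grik1, Grik2, Grik3, Grik4 and Grik5) were taken by symbol from the 31053 genes counted in single cells of the mouse dorsal root ganglion (DRG). All 9 were present. They were followed across sensory neuron subtypes, between sham surgery and constriction of the sciatic nerve (chronic constriction injury, CCI), and between neurons with and without Sprr1a, a gene that injured sensory neurons switch on.

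The study comprised 4 libraries, 1 for each sex and surgery: Male-Sham and Male-CCI, Female-Sham and Female-CCI. Every mouse, controls included, was a PirtEGFPf heterozygote on the C57BL/6 background, 7-8 weeks old, in which 1 copy of Pirt is replaced by farnesylated EGFP under the Pirt promoter. The CCI mice had both sciatic nerves loosely ligated, the sham mice had surgery without the ligatures, and on day 7 the L4-5 DRGs of 5 mice (20 ganglia) were pooled into 1 library of sorted GFP+ cells, read by droplet 3′ sequencing with unique molecular identifiers (UMIs). Littermates of both sexes received the same surgery, so litter and surgery cannot be told apart, and the p-values between surgeries rest on 2 pools against 2, those within CCI on 2 pools alone, each split by state. Tests between classes take several sums from each of the 4 pools, with the pool as a term of the fit, and their p-values measure the spread between such sums. The libraries held 4019 to 8035 cells and 195684124 to 237069156 UMIs, and 2947 to 5548 cells per library passed the filters, at a median of 31941.5 to 55255 UMIs. Pairs of libraries shared 215 to 513 cell barcodes as deposited and 17 among the kept cells.

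AMPA and kainate receptors are ion channels opened by glutamate, each assembled from 4 subunits. Most central excitatory transmission runs through AMPA receptors, and the Gria2 subunit, once its messenger is edited at the Q/R site of the pore, keeps calcium out. Kainate receptors are built from Grik1, Grik2 and Grik3, which can form channels alone, and from Grik4 and Grik5, which bind kainate more tightly but need a partner of the first kind. In sensory neurons both families sit on cell bodies and on central and peripheral endings, and kainate receptors holding Grik1 are a known feature of small-diameter DRG neurons.

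The reference coding sequence around the Q/R site is shown for all 9 genes. It is the stretch at which editing separates calcium-tight from calcium-permeable channels, and it shows how alike the members are. Each line gives 30 coding bases, 5′ to 3′, from GENCODE M21 transcripts of the GRCm38 genome, and capitals mark the glutamine codon of the Q/R site.
Gria1: ggggccttcatgCAGcaaggatgtgacatt
Gria2: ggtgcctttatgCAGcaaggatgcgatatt
Gria3: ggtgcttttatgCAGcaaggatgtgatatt
Gria4: ggtgcctttatgCAAcaaggatgtgacatt
Grik1: ggagctctcatgCAGcaaggatcggagctg
Grik2: ggagctctcatgCAGcaaggttctgagctc
Grik3: ggctccctgatgCAGcaaggatctgaactg
Grik4: ggaggcttcatgCAGcaaggctccactatt
Grik5: ggtggcttcatgCAGcagggctcggagatc
The genome encodes glutamine there in every member, by CAG in 8 genes and by CAA in Gria4. Over the 30 bases Gria1, Gria3 and Gria4 differed from Gria2 at 4, 2 and 3 positions, and the kainate genes at 7 to 10. The Gria2 stretch lies in coding exon sequence at chr3:80706896-80706925 on the minus strand (exon 11 of 16), within a gene at chr3:80681450-80802835. The Gria1 stretch lies at chr11:57243082-57243111 on the plus strand (exon 11 of 16 of a gene at chr11:57011387-57330244). The Grik1, Grik2 and Grik3 stretches cross an exon junction, those of Grik1 and Grik2 with exon 13 of 18 on chromosome 16 and exon 12 of 16 on chromosome 10. Counts from the 3′ end of a transcript carry no information on editing at this site or on the alternative flip and flop exons, so all values below are amounts of transcript.

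The kept cells were clustered without the 9 genes, and the clusters were named from marker genes as 10 neuron classes: NP1-like, NP2-like and NP3-like (non-peptidergic), PEP1-like, PEP2-like, PEP3/4-like and PEP5-like (peptidergic, the last with the cold channel Trpm8), NF1-like and NF2-like (neurofilament-rich, large), and cLTMR-like (C-fiber low-threshold mechanoreceptors). They are written NP1, PEP1 and so on from here. A class of satellite glial cells (SGC-like) held 581 cells, and a CCI-induced class held 995 and 1208 cells of the male and female CCI libraries against 41 and 132 of the sham libraries. Clusters that could not be named held 96 and 107 sham and 332 and 448 CCI neurons, 278 and 393 of the latter Sprr1a+, and count only among all neurons. Levels are CPM, the UMIs of the gene per 1000000 UMIs after adding up all cells of a class within a library. Since classes come from clustering the same cells, differences between classes are described and not tested, and capture at the 3′ end differs between genes, so levels are compared within a gene only.

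In sham libraries each AMPA subunit gene had its own profile. Gria1 stood at 86.5 and 79.7 CPM (Male-Sham and Female-Sham) in PEP2 and at 63.8 and 57.5 CPM in PEP3/4. It fell to 21.3 and 23.8 CPM in PEP5 and to 16.9 and 19.4 CPM in NF2, and NP1 and NP3 held 0.715 and 0.550, and 0.562 and 0.580 CPM. Means in NP2, PEP1 and NF1 were 10.3 to 13.6 CPM. Gria1 was thus highest in 2 peptidergic classes and near the detection limit in 2 of the 3 non-peptidergic ones. Gria2, the subunit that sets calcium permeability, peaked instead in PEP5 at 77.9 and 75.6 CPM. The other 9 classes held means of 7.91 CPM (cLTMR) to 26.8 CPM (NP2), and NP2 and PEP1 could not be ordered because their libraries overlapped.

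Gria3 was also highest in PEP5, with 39.2 and 37.2 CPM, followed by NF1 with 23.1 and 26 CPM and cLTMR with 11.1 CPM in both libraries. Below NF2 (5.92 and 3.65 CPM), every class mean was at most 1.73 CPM. Gria4 was the most evenly spread AMPA gene: PEP1 led with 42.0 and 33.8 CPM, 7 classes had means from 15.3 to 26.4 CPM in an order in which most neighbours overlapped, and NP2 (5.89 and 6.07 CPM) and cLTMR (4.59 and 4.88 CPM) were lowest. The mix thus differed between classes: PEP2 and PEP3/4 had high Gria1, PEP5 high Gria2 and Gria3, and NP1 and NP3 hardly any Gria1. Gria2 did not set PEP2 and NP3 apart in this clustering, with means of 12.1 and 11.4 CPM and libraries that overlapped. Clustered without injury genes, described below, the libraries did not overlap, at 18.0 and 16.7 CPM in PEP2 and 13.5 and 9.88 CPM in NP3.

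Among kainate genes Grik1 spanned the widest range. Its level in NP2, the Mrgprd nociceptors, was 595 and 560 CPM, and in cLTMR 256 and 240 CPM. NP3 followed with 43.7 and 41.6 CPM, NF1 held 9.40 and 15.5 CPM, and means elsewhere were 3.34 to 8.14 CPM. SGC-like cells, which hold fewer UMIs per cell, had 10.6 and 15.5 CPM of Grik1 in the same libraries, and the part of free RNA in levels this low was not tested. Both classes at the top are unmyelinated fibers that end in skin.

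Grik2 was sparse, with 8.94 and 9.85 CPM in PEP5 and 9.55 and 7.08 CPM in NF1, 2 classes whose libraries overlapped. Grik3 did not exceed 3.93 CPM in any class of sham neurons, its means being 3.67 CPM in NF1, 3.65 CPM in cLTMR and 3.15 CPM in PEP5 (1.64 CPM there without clusters that carried SGC markers). The high-affinity subunits were broader. Grik4 was highest in NP1 (55.3 and 40.2 CPM) and NF2 (41.0 and 38.9 CPM), which overlapped, and lowest in PEP5 (4.36 and 4.28 CPM), the class in which Gria2 and Gria3 peaked. Grik5 was present throughout, from means of 41.9 CPM in PEP2 and 39.7 CPM in PEP1 down to 18.5 CPM in NP2. Under 4 alternative clusterings (a coarser and a finer resolution, without injury genes, and with the 9 genes kept) the highest class stayed the same for all 9 genes. Lower levels were less stable in PEP2. Without injury genes its mean Grik4 went from 21.3 to 5.80 CPM and its mean Gria4 from 15.3 to 9.36 CPM.

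**Figure D1:**
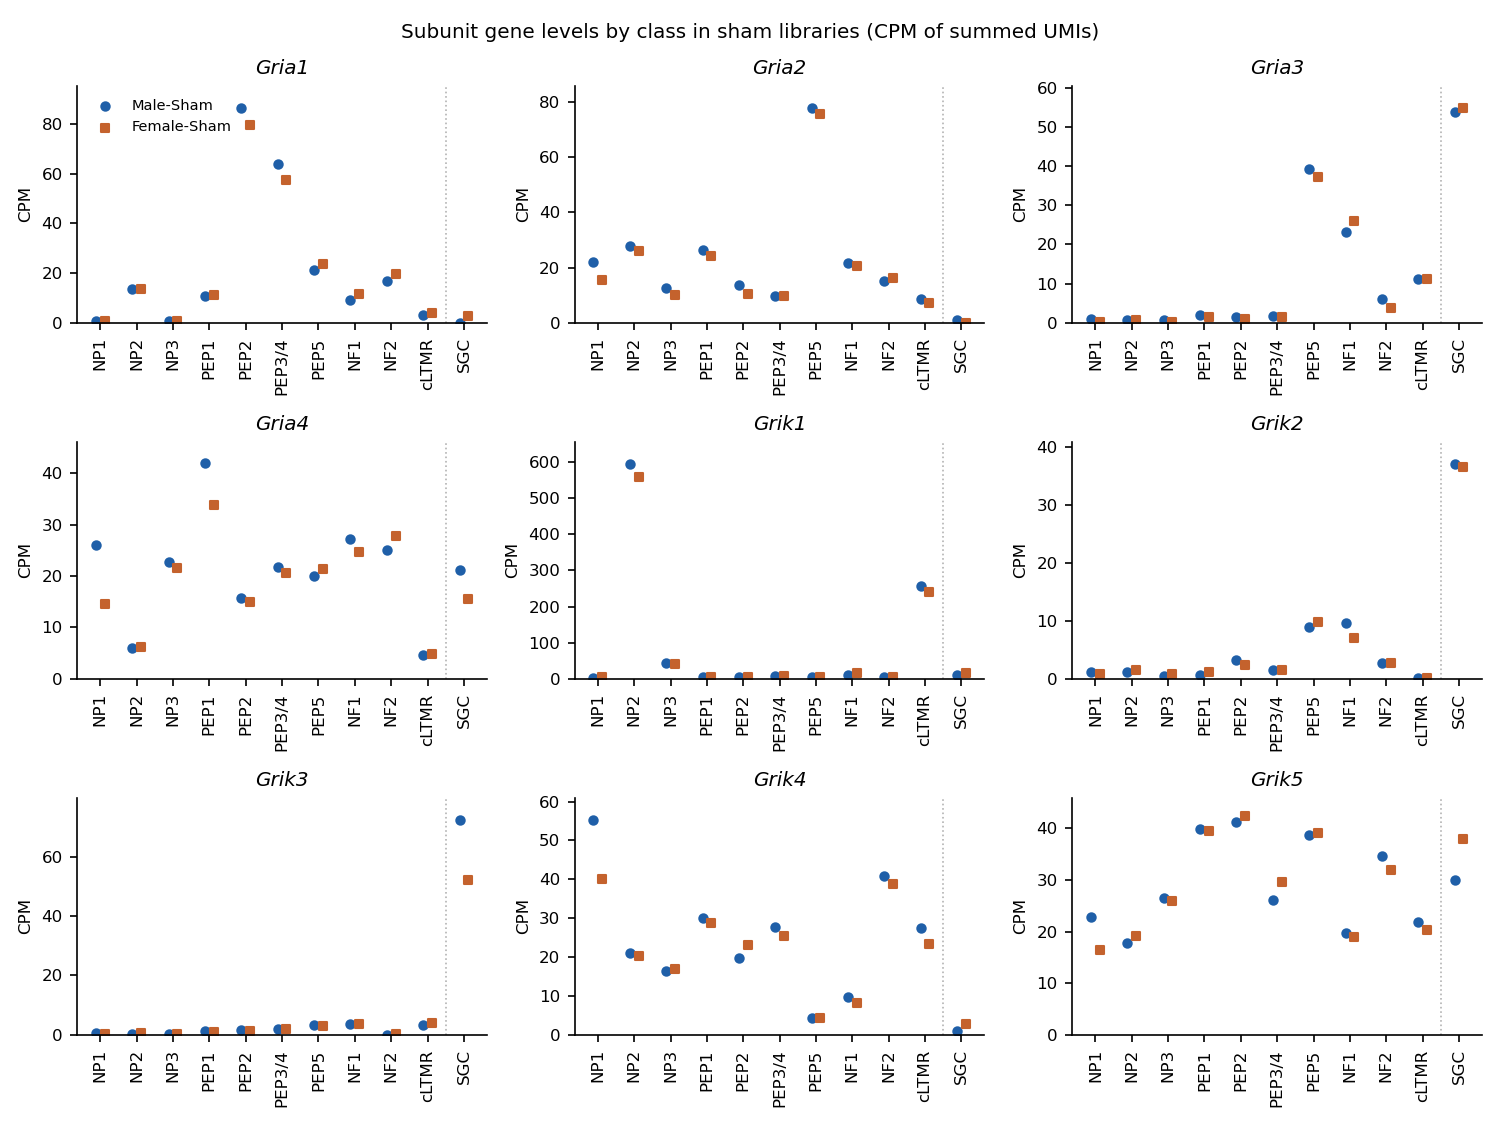
Levels of the 9 subunit genes by neuron class in sham libraries and in SGC-like cells, in CPM on linear axes, with 1 point for Male-Sham and 1 for Female-Sham. Grik1 reaches 595 and 560 CPM in NP2 and stays at means of 3.34 to 8.14 CPM in the 6 classes below NF1, whereas Grik5 keeps class means between 18.5 and 41.9 CPM.

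The libraries are labelled as neurons, yet SGC-like cells were among them, and 5 members were above the floor in those cells of every library. Gria3 held 53.8, 54.9, 52.3 and 77.0 CPM there (the sham libraries, male first, then the CCI libraries), Grik2 37.0, 36.6, 60.1 and 52.5 CPM, and Grik3 72.3, 52.1, 43.1 and 64.8 CPM, against floors of 2.65 to 5.25 CPM for 3 UMIs. Grik5 held 29.98, 38, 24.8 and 31.5 CPM, and Gria4 had 24, 11, 10 and 7 UMIs. Grik1 had 12 and 11 UMIs in the sham and 2 and 3 in the CCI libraries. Gria1, Gria2 and Grik4 had 0 to 2 UMIs per library, under the floor. The SGC markers Fabp7, Apoe, Cdh19, Sparc and Kcnj10, all 5 detected, summed to 99590 to 129000 CPM in SGC-like cells and to 826 to 1584 CPM over all neurons of a library. In sham PEP5 of the clustering without injury genes they summed to 3692 and 4184 CPM and in PEP3/4 to 32.2 and 46.6 CPM. Without the neuronal clusters that carried SGC markers, mean Gria3 in PEP5 was 40.4 CPM and Grik2 8.28 CPM, so that NF1 (8.32 CPM) led for Grik2, and mean Grik3 went from 1.89 to 0.05 CPM in PEP3/4, from 1.02 to 0.17 CPM in PEP1 and from 3.15 to 1.64 CPM in PEP5. In the clustering used for these levels, sham PEP3/4 carried SGC marker sums of 2592 and 2902 CPM. The Gria3 level of PEP5 was as high without the SGC-marked clusters, and the Grik3 levels of PEP3/4, PEP1 and PEP5 were not.

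Genes whose sham profile over the 10 classes was most like that of a member were named by the highest Pearson correlation of log2(CPM + 1), a description over 10 points from the same 2 libraries. Grik1 was followed by Ms4a3 (r = 0.983), Cyp4f39 (0.971) and Gm16364 (0.968), and Gria3 by Grid1 (0.991), the gene of a delta glutamate receptor subunit, Hs3st4 (0.989) and Mrpl18 (0.977). Among the nearest to Gria1 were Fry (0.958) and Zfp81 (0.943). For Gria2 these were Tomm70a (0.912), Sh3bp5l (0.875) and Hoxa2 (0.872), and for Gria4 Esyt1 (0.932), Akt1 (0.927) and Wipf2 (0.922). The kainate genes Grik2, Grik3, Grik4 and Grik5 were led by Galnt4 (0.965), Lhfp (0.974), Dcaf12 (0.964) and Pofut1 (0.935). Cyp4f39, Hoxa2 and Galnt4 were scarce in every class, with highest means of 0.204, 0.730 and 0.714 CPM, so their correlations rest on few UMIs.

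The first comparison asked what CCI did to the 9 genes over all neurons, 3281 and 5398 in the sham libraries and 2817 and 3638 in the CCI libraries. Of the 9 members, 4 passed the threshold (edgeR adjusted p below 0.05 and a log2 fold change beyond 0.5), 3 lower and 1 higher in CCI, beside 27.8% of the 17232 genes tested. Grik1 went from 153 and 127 CPM in sham to 60.02 and 63.1 CPM in CCI, a log2 fold change of -1.13 (SE 0.085, edgeR adjusted p = 0.000105). The groups did not overlap, and no other member changed as much. Gria3 fell from 6.89 and 6.41 CPM to 3.85 and 3.68 CPM (log2 fold change -0.77, SE 0.078, edgeR adjusted p = 0.000282). Grik5 fell from 27.6 and 28.7 CPM to 18.8 and 19.4 CPM (-0.51, SE 0.053, edgeR adjusted p = 0.000336), just past the fold limit, which it missed at -0.48 without Female-Sham and at -0.49 without Male-CCI.

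Grik3 was the exception and rose, from 1.68 and 1.83 CPM to 2.76 and 3.11 CPM (log2 fold change 0.79, SE 0.12, edgeR adjusted p = 0.00162). Its rise was 1.28 without the clusters that carried SGC markers, whose sum was lower in CCI neurons (826 and 1027 CPM) than in sham neurons (1269 and 1584 CPM). Gria2 (22.4 and 19.9 against 15.8 and 14.9 CPM), Gria4 (19.7 and 18.0 against 13.3 and 13.0 CPM) and Grik4 (23.6 and 22.2 against 17.9 and 19.0 CPM) were lower in both CCI libraries with adjusted p of 0.0033, 0.0011 and 0.00932 in edgeR but changed by 0.26 to 0.47 on the log2 scale, inside the fold limit. Without Female-Sham, Gria4 passed it at -0.54. Gria1 and Grik2 gave log2 fold changes of -0.13 and 0.05 with edgeR adjusted p of 0.193 and 0.736. Fewer neurons of a class and less RNA per neuron cannot be told apart in such sums, and the classes were not equally represented after CCI: NP2, the class richest in Grik1, held 459 and 590 sham but 146 and 169 CCI cells.

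Sprr1a split the neurons further. A neuron was Sprr1a+ where its normalized natural-log value was above 1, which held for 42 and 144 neurons of the sham and 1467 and 1790 neurons of the CCI libraries. Comparing Sprr1a+ neurons of CCI with Sprr1a- neurons of sham asks what differs in injured neurons, and the 2 remaining comparisons set Sprr1a- neurons of CCI against sham and the 2 states of the same CCI libraries against each other. Comparisons that use the same cells share their noise, so their values are given side by side only.

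In Sprr1a+ CCI neurons 7 of the 9 members passed, 6 lower and 1 higher, where 49.8% of 16880 genes passed (26.4% lower, 23.4% higher). Gria2 held 5.12 and 4.23 CPM in Sprr1a+ neurons of Male-CCI and Female-CCI against 22.7 and 20.5 CPM in Sprr1a- sham neurons, a log2 fold change of -2.06 (SE 0.10, edgeR adjusted p = 1.05e-06). Gria4 held 4.54 and 3.89 against 20.1 and 18.5 CPM (-2.05, SE 0.094, edgeR adjusted p = 5.82e-07). Gria3 held 1.64 and 1.08 against 6.99 and 6.57 CPM (-2.16, SE 0.17, edgeR adjusted p = 2.32e-05). These 3 AMPA genes were lower in both Sprr1a+ sums than in either sham sum. Gria1, whose protein forms calcium-permeable channels when Gria2 is missing, did not pass, at 17.6 and 20.4 against 23.3 and 24.7 CPM (-0.19, SE 0.082, edgeR adjusted p = 0.0619).

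Of the kainate genes Grik1 changed most, from 155 and 131 CPM in Sprr1a- sham neurons to 12.5 and 14.2 CPM in Sprr1a+ CCI neurons (log2 fold change -3.28, SE 0.099, edgeR adjusted p = 2.90e-07). Grik5 went from 27.8 and 29.2 CPM to 12.5 and 13.2 CPM (-1.004, SE 0.065, edgeR adjusted p = 3.98e-06). Grik4 went from 23.8 and 22.4 CPM to 12.5 and 12.5 CPM (-0.74, SE 0.065, edgeR adjusted p = 2.06e-05), a call that rests on the Sprr1a cut, since with any Sprr1a UMI counted as positive the change was -0.32. Both high-affinity subunits thus fell, and by less than Grik1. Grik3 rose from 1.66 and 1.74 CPM to 3.93 and 4.85 CPM (1.51, SE 0.14, edgeR adjusted p = 2.59e-05), and by 2.11 without the clusters that carried SGC markers. The SGC markers summed to 1280.0 and 1607 CPM in the Sprr1a- sham neurons and to 623 and 931 CPM in the Sprr1a+ CCI neurons. Grik2 stayed at 2.07 and 2.35 against 2.29 and 2.14 CPM (0.14, SE 0.13, edgeR adjusted p = 0.359).

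**Figure D2:**
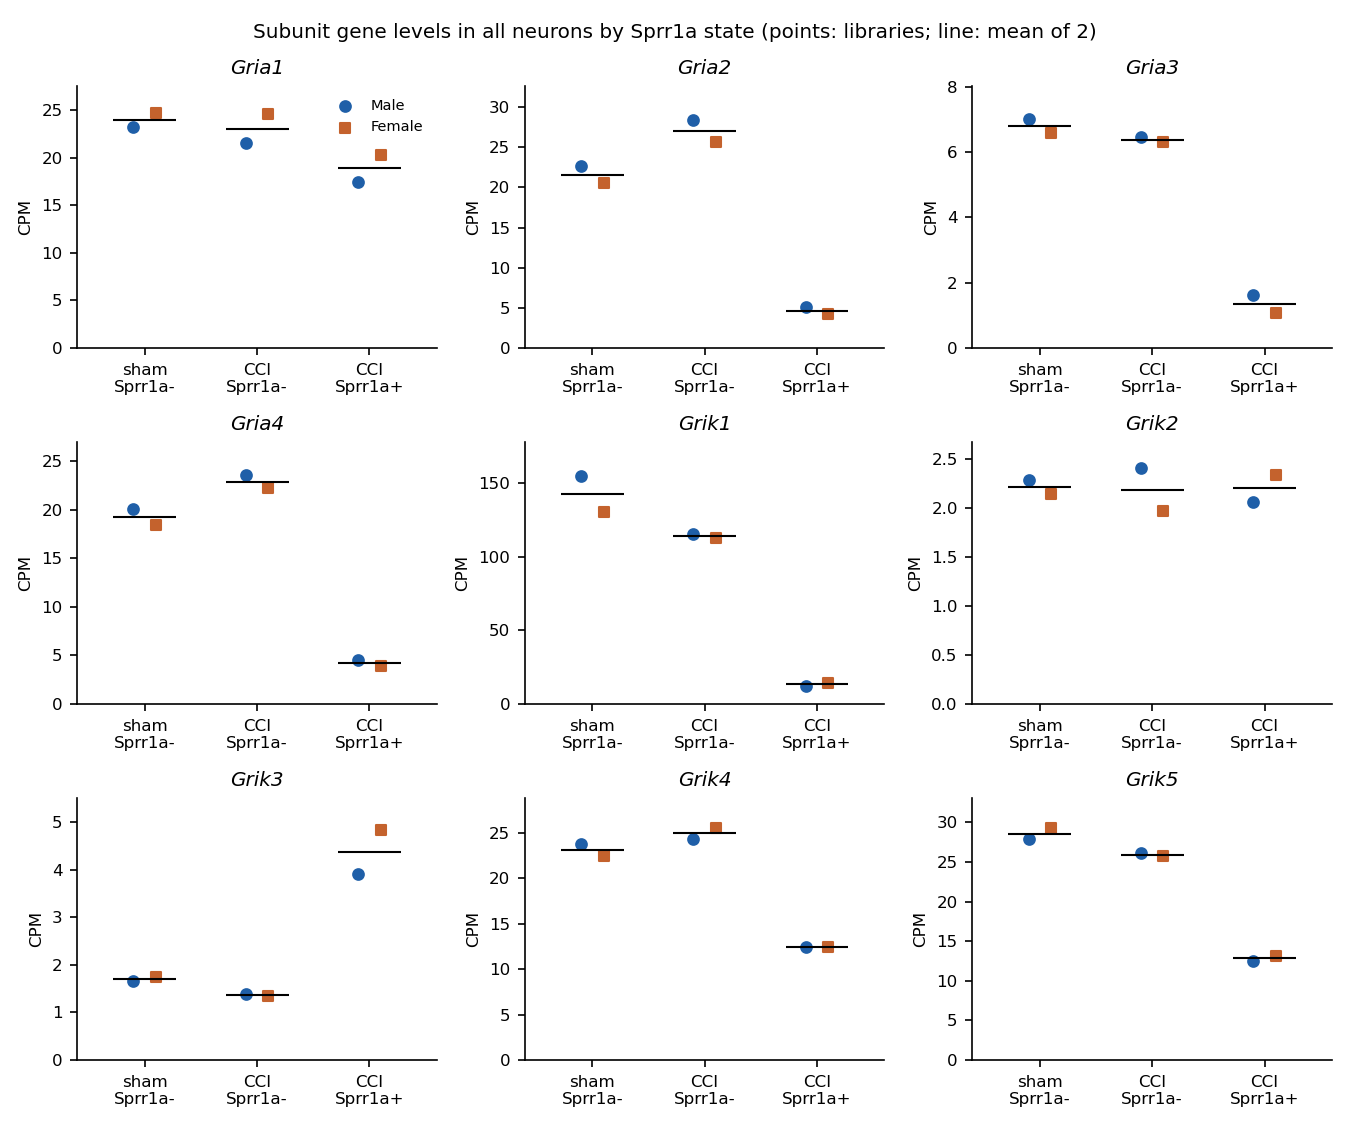
Levels of the 9 genes over all neurons, in CPM on linear axes, in Sprr1a- sham, Sprr1a- CCI and Sprr1a+ CCI neurons, with 1 point per library and a line at the mean of 2. Grik1 lies at 155 and 131, 116 and 113, and 12.5 and 14.2 CPM in the 3 states, while Grik3 goes up to 3.93 and 4.85 CPM in the last.

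Sprr1a- neurons showed little of this. None of the 9 members passed between Sprr1a- CCI and Sprr1a- sham neurons by edgeR or DESeq2, where 4.47% of 16406 genes did by edgeR and 3.82% by DESeq2. An unadjusted edgeR p below 0.05 was found for 5 members, and for 5617 of the 16406 genes. Gria2 (28.4 and 25.6 against 22.7 and 20.5 CPM, log2 fold change 0.30, SE 0.072, edgeR adjusted p = 0.0334) and Grik1 (116 and 113 against 155 and 131 CPM, -0.34, SE 0.078, edgeR adjusted p = 0.0296) were the 2 members with an adjusted p below 0.05, in opposite directions and inside the fold limit. The log2 changes of the other 7 lay between -0.35 and 0.22 with adjusted p of 0.0524 to 0.868. Within the CCI libraries, with the library as a block, 7 of 9 members passed between Sprr1a+ and Sprr1a- neurons, beside 45.5% of 16270 genes. The log2 differences were -2.94 for Grik1, -2.36 for Gria2, -2.27 for Gria4, -2.06 for Gria3, -0.84 for Grik5, -0.83 for Grik4 and 1.86 for Grik3, with edgeR adjusted p of at most 1.60e-06. Gria1 (-0.11) and Grik2 (0.18) did not pass. These are the 7 genes called against sham neurons, in the same directions, from a comparison that uses the same Sprr1a+ cells.

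Sprr1a+ neurons were rare in sham libraries, yet their levels can be set beside those after CCI. The 42 and 144 such cells held Gria2 at 5.95 and 2.16 CPM, Grik1 at 20.2 and 23.8 CPM, Grik3 at 3.17 and 4.32 CPM and Gria1 at 16.7 and 16.6 CPM, with 13 to 143 UMIs behind all but Grik3 of Male-Sham (8 UMIs). Gria4 had 1 UMI in Male-Sham and 15 in Female-Sham. No test was run on so few cells.

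Over all neurons, the balance of subunit UMIs differed with state. Of all AMPA subunit UMIs, Gria1 made up 31.9% and 35.2% in Sprr1a- sham neurons, 27.0% and 31.2% in Sprr1a- CCI neurons, and 60.9% (95% exact binomial interval 58.9 to 62.8) and 68.9% (67.0 to 70.8) in Sprr1a+ CCI neurons. Gria2 made up 31.0% and 29.2%, 35.6% and 32.6%, and then 17.7% (16.3 to 19.3) and 14.3% (12.9 to 15.8). Gria4 went from 27.5% and 26.3% in Sprr1a- sham neurons to 15.7% and 13.2% in Sprr1a+ CCI neurons, and Gria3 from 9.58% and 9.36% to 5.69% and 3.65%. With all classes pooled, most AMPA UMIs of Sprr1a+ neurons were thus Gria1, although its own level was not called different. This did not hold in every class: Sprr1a+ CCI neurons of NP1 held 3 Gria1 UMIs (0.232 CPM). Capture differs between genes, so a share of UMIs is not a share of transcripts. Classes were not equally represented in these states, and the part of class mix in the AMPA and kainate shares was not tested.

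Of kainate subunit UMIs, Grik1 made up 73.6% and 70.2% in Sprr1a- sham, 68.1% and 67.4% in Sprr1a- CCI, and 28.7% and 30.1% in Sprr1a+ CCI neurons, where Grik4 (28.7% and 26.6%) and Grik5 (28.8% and 28.1%) had shares of the same size. Grik3 rose from 0.789% and 0.936% to 9.04% and 10.3%, and Grik2 from 1.09% and 1.15% to 4.77% and 4.99%. The intervals cover counting error only. Over all neurons regardless of state, the mean Grik1 share was 71.7% ± 2.51 in sham and 59.1% ± 0.064 in CCI libraries (SD, n = 2), and an exact two-sided permutation test gave p = 0.333, the smallest that 2 libraries against 2 allow (0.375 after Benjamini-Hochberg adjustment over the 9 shares). The Gria2 share was 30.01% ± 1.43 in sham and 28.9% ± 1.95 in CCI libraries (SD, n = 2), a difference within the spread of libraries (exact permutation p = 0.667).

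**Figure D3:**
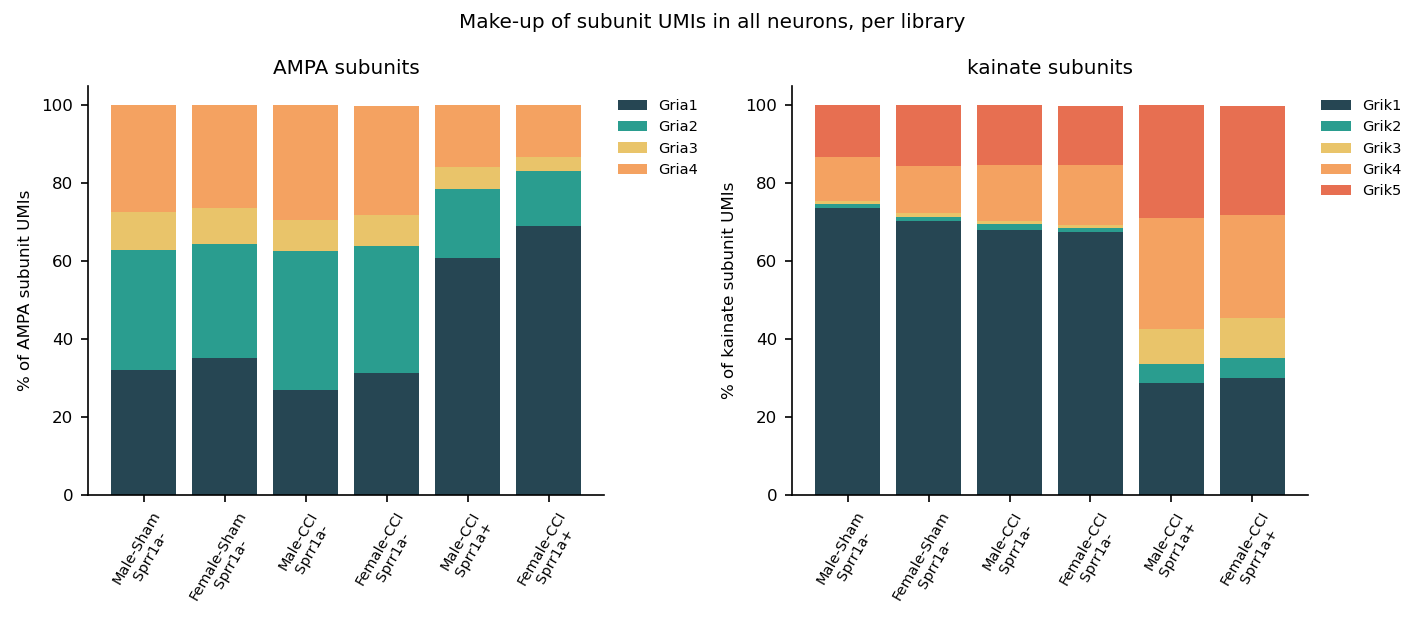
Share of each subunit among the AMPA and among the kainate subunit UMIs, in percent, for each library and state over all neurons. Gria1 takes 60.9% and 68.9% of the AMPA bar and Grik1 only 28.7% and 30.1% of the kainate bar in Sprr1a+ CCI neurons.

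Class by class, 3 classes held at least 10 Sprr1a+ CCI and 10 Sprr1a- sham neurons in every library: NP1 (98 and 108 against 83 and 71 cells), NF1 (52 and 29 against 146 and 165) and NF2 (63 and 61 against 78 and 92). The CCI-induced class held 967 of the 1467 and 1161 of the 1790 Sprr1a+ CCI neurons. In NP1, marked by the itch peptide gene Nppb, 5 members passed the filter on low counts and all 5 were called lower, where 41.1% of 11324 genes were called. Grik4 had its highest level here and fell from 59.4 and 45.4 CPM to 21.6 and 19.4 CPM (log2 fold change -1.31, SE 0.14, edgeR adjusted p = 2.22e-10). Gria2 fell from 23.1 and 19.3 CPM to 3.02 and 4.21 CPM (-2.52, SE 0.25, edgeR adjusted p = 1.58e-11). Gria4 went from 28.02 and 17.2 CPM to 4.17 and 6.91 CPM (-2.02, SE 0.26) and Grik5 from 23.1 and 17.2 CPM to 10.1 and 10.4 CPM (-0.94, SE 0.21). Grik1 was low at 3.11 and 3.22 against 0.863 and 1.01 CPM (-1.68, SE 0.52, edgeR adjusted p = 0.00642). That call was lost without Male-Sham (-1.74, adjusted p = 0.0728), Male-CCI (-1.54, 0.107) or Female-CCI (-1.81, 0.051). The other 4 had 3 to 28 UMIs in either state, and Grik3, with 28 UMIs in Sprr1a+ CCI and 3 in Sprr1a- sham NP1 neurons, gave a ratio of 4.80 (95% counting interval 1.48 to 24.7).

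In NF2, 6 of 8 tested members were called, all lower, beside 40.7% of 11715 genes. Grik4 fell from 41.0 and 38.9 CPM to 9.80 and 12.6 CPM (log2 fold change -1.62, SE 0.16, edgeR adjusted p = 3.12e-05). Gria2 fell from 15.2 and 16.2 CPM to 3.27 and 3.01 CPM (-2.05, SE 0.25), and Gria1 from 16.9 and 19.4 CPM to 3.76 and 5.203 CPM (-1.81, SE 0.24, edgeR adjusted p = 0.00018). In this class Gria1 therefore fell with the others. Gria4 (-1.18), Grik5 (-1.14) and Gria3 (-1.59) were also called, the last not without Male-Sham (-1.20, adjusted p = 0.226). Grik1 and Grik2 gave -0.32 and -0.85 with edgeR adjusted p of 0.498 and 0.194.

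In NF1, 7 of 9 members were called, 6 lower and 1 higher, beside 44.5% of 12073 genes. Gria3 fell from 23.1 and 26 CPM to 5.86 and 2.64 CPM (log2 fold change -1.98, SE 0.26, edgeR adjusted p = 6.03e-05). Gria2 fell from 21.7 and 20.5 CPM to 7.495 and 7.27 CPM (-1.19, SE 0.20), and Gria4 from 27.2 and 24.7 CPM to 8.67 and 10.6 CPM (-1.18, SE 0.19). With any Sprr1a UMI counted as positive these last 2 values were 0.07 and -0.29 and were not called. Grik1 was higher in Sprr1a+ NF1 neurons, at 18.0 and 19.8 CPM against 9.40 and 15.5 CPM (0.91, SE 0.26, edgeR adjusted p = 0.0133). With doublets kept the value was -0.33 (adjusted p = 0.457). It was not called without Male-Sham (0.57), nor without Male-CCI (0.96) or Female-CCI (0.92), where it was as large but 1 library stood alone. Gria1 (-0.95), Grik2 (-1.11) and Grik5 (-0.61) were called in the fit over all 4 libraries but not by DESeq2. Leaving out 1 library ended the Gria1 call without Female-Sham (-0.84) or Female-CCI (-0.70), the Grik2 call without Male-Sham (-0.87) or Male-CCI (-1.07), and the Grik5 call without Male-Sham (-0.60), Female-Sham (-0.65) or Male-CCI (-0.70).

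The change was compared between these 3 classes in 1 fit over 13084 genes. The log2 change of Grik1 in NP1 minus that in NF1 was -2.62 (SE 0.53, edgeR adjusted p = 0.000419) and that of Gria2 -1.31 (SE 0.36, edgeR adjusted p = 0.00611), where 27.7% of genes were called. Grik1 also differed between NF2 and NF1 (-1.23, SE 0.39, edgeR adjusted p = 0.0314), where 14% were called, and no member did between NP1 and NF2, where 21.3% were. In all 4 of 27 differences were called by edgeR and 1 by DESeq2, the fourth being Grik2 in NP1 against NF1 (2.22, SE 0.79, edgeR adjusted p = 0.0341), which rests on 5 UMIs in Sprr1a- sham NP1 neurons.

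To follow the other classes, the cells were clustered again without 1924 injury genes, those 1.5-fold or more apart between the surgeries in males and in females alike, which left 9 classes with at least 10 cells per library and state. PEP2, the class highest in Gria1 and Grik5 in sham, was not among them. It held 5 Sprr1a+ neurons of Male-CCI and 14 of Female-CCI, so no change was measured there. Of the Sprr1a+ CCI neurons, 511 of 1467 and 596 of 1788 were still in the CCI-induced class and 49 and 98 in unnamed clusters, which also held 508 and 956 sham neurons. Class identity was checked by class markers. In Sprr1a+ neurons, the markers of NP1, PEP5, cLTMR and NF1 were higher in their own class than in any other in both libraries, for instance 107 and 99.1 CPM in PEP5 against at most 8.66 and 7.70 CPM elsewhere. NP2, NP3 and PEP3/4 markers were only a little above or level with the next class, such as 35.4 and 45.2 CPM in NP2 against 39.8 and 36.9 CPM in NP3, after 1341 and 1249 CPM in Sprr1a- NP2 neurons. Markers of PEP1 and NF2 were higher in another class. The class of a Sprr1a+ neuron is thus less certain in the last 5 classes, and the injury genes left out were chosen on the same libraries.

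Summed over the 9 classes 58 of 73 tested member values were called, where 48.8% of genes were called in NP2, 48.6% in NP3, 46.2% in PEP5, 45.7% in NF1, 45.6% in PEP1, 44.7% in cLTMR, 42.1% in PEP3/4, 41.5% in NP1 and 40.1% in NF2. Of the 58 calls, 13 were lost when some 1 library was left out. Gria2 was lower in all 9 classes. In PEP5, where it was highest, it fell from 77.5 and 74.8 CPM to 15.6 and 13.6 CPM (log2 fold change -2.08, SE 0.11, edgeR adjusted p = 1.05e-15). The fall was steepest in PEP1 (from 26.8 and 25.1 CPM to 2.69 and 2.94 CPM, -3.10, SE 0.16) and least in cLTMR (from 8.72 and 7.10 CPM to 4.73 and 4.34 CPM, -0.77, SE 0.22), the latter not called without Male-Sham (-0.65). Gria4 was called lower in 8 classes and gave -0.59 in cLTMR with an edgeR adjusted p of 0.0759. Its largest fall was in NP3, from 24.0 and 21.8 CPM to 3.85 and 3.54 CPM (-2.74, SE 0.21). PEP1 and NP3, which lead these 2 rankings, are among the classes that are less certain for Sprr1a+ neurons.

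Gria3 fell where it had been high. In PEP5 it went from 38.9 and 36.7 CPM to 3.35 and 2.1 CPM (log2 fold change -3.47, SE 0.18, edgeR adjusted p = 1.33e-15), and in cLTMR from 11.1 and 11.1 CPM to 3.01 and 3.89 CPM (-1.67, SE 0.21). NF1 (-2.05, SE 0.26) was lower too. The calls in NF2 (-1.58) and PEP1 (-1.52) were lost without Male-Sham in NF2 (-1.19) and without any 1 of the 4 libraries in PEP1 (-1.26 to -1.74). In the same PEP5 cells the SGC markers summed to 3692 and 4184 CPM in the Sprr1a- sham and 1232 and 1572 CPM in the Sprr1a+ CCI state. The part of SGC transcripts in the Gria3 fall was not tested beyond the all-neuron value without SGC-marked clusters, which was -2.19 against -2.16 with them.

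Gria1 did not follow its relatives in the classes tested, which leave out PEP2, where it was highest in sham. In PEP3/4, where it was high in sham, the level was 66.9 and 58.3 CPM in Sprr1a- sham and 72.0 and 63.2 CPM in Sprr1a+ CCI neurons (log2 fold change 0.23, SE 0.089, edgeR adjusted p = 0.0374, inside the fold limit). PEP5 (0.18), NP2 (0.07) and cLTMR (0.35) gave edgeR adjusted p of 0.259 to 0.625. In NP3 it rose from 0.618 and 0.717 CPM to 6.35 and 3.36 CPM (2.69, SE 0.42, edgeR adjusted p = 8.68e-06), and in NF2 it fell from 16.7 and 19.6 CPM to 3.14 and 3.41 CPM (-2.23, SE 0.26, edgeR adjusted p = 2.94e-05). Gria1 was also called lower in NF1 (-1.04) and PEP1 (-0.69), calls that were lost in NF1 without Female-Sham (-0.94) or Female-CCI (-0.77) and in PEP1 without Male-CCI (-0.28). NP3, where it rose, is one of the classes that markers hardly set apart after injury.

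Grik1 lost most where it had most. In NP2 it fell from 595 and 561 CPM to 23.9 and 34.9 CPM (log2 fold change -4.37, SE 0.14, edgeR adjusted p = 5.46e-10). Markers hardly set NP2 apart from NP3 after injury, and the part of mixed assignment in this value was not tested. In cLTMR, the other rich class and one with firm markers, it fell from 256 and 240 CPM to 34.4 and 43.4 CPM (-2.65, SE 0.11, edgeR adjusted p = 1.01e-08). NP3 (-2.28, SE 0.16) and PEP3/4 (-1.95, SE 0.24) were also lower, and PEP1 was called at -1.11 but gave -0.41 without Male-CCI. NP1 was called at -1.70, and not without Male-Sham (-1.76), Male-CCI (-1.59) or Female-CCI (-1.80). NF1 was the class in which Grik1 was higher (0.88), again not called without Male-Sham (0.53), Male-CCI (0.88) or Female-CCI (0.90). PEP5 (-0.65, edgeR adjusted p = 0.0955) and NF2 (-0.18, 0.722) were not called.

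Grik3 rose in most classes from very low sham levels. In cLTMR it went from 3.37 and 3.93 CPM to 9.89 and 10.7 CPM (log2 fold change 1.51, SE 0.21, edgeR adjusted p = 9.04e-05), with SGC marker sums of 278 and 957 CPM before and 773 and 876 CPM after. In PEP5 it went from 3.17 and 3.04 CPM to 6.14 and 7.59 CPM (1.43, SE 0.26, edgeR adjusted p = 2.41e-05), where the SGC marker sum was lower after CCI and the sham level fell without SGC-marked clusters, as given above. In NP2 it went from 0.386 and 0.515 CPM to 3.14 and 4.99 CPM (3.08, SE 0.37, edgeR adjusted p = 3.41e-06). PEP3/4 held 2 Grik3 UMIs in the Sprr1a- sham sums and 35 in the Sprr1a+ CCI sums, a ratio of 67.9 (95% counting interval 17.5 to 583), with SGC marker sums of at most 60.15 CPM, Cdh19 being at 0 in both CCI sums and Kcnj10 in that of Female-CCI. NF1 did not pass (0.50, edgeR adjusted p = 0.264).

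Grik2 moved both ways. It rose in PEP3/4 from 0.663 and 0.882 CPM to 3.75 and 2.83 CPM (log2 fold change 2.16, SE 0.37, edgeR adjusted p = 0.000199), and was lower in PEP5, at 8.82 and 9.55 against 2.93 and 4.68 CPM (-1.003, SE 0.24), though not without Male-CCI (-0.67, adjusted p = 0.0568). It was also called in NF1 (-1.10), but not without Male-Sham (-0.86) or Male-CCI (-0.94), and in PEP1 (1.38), but not without Male-Sham (0.99) or Female-CCI (1.25). The high-affinity genes fell almost throughout. Grik4 was called lower in 7 classes, most in NF2 (-1.64, SE 0.17), and not called in NP3 (-0.12) and PEP5 (0.44). Grik5 was called lower in 8 classes, from -0.61 in NF1 to -1.45 in PEP1, and gave -0.32 in PEP3/4. In NF1 the Grik4 call (-0.87) was lost without Male-Sham (-0.73), Male-CCI (-1.04) or Female-CCI (-0.78), and the Grik5 call without Male-Sham (-0.58), Female-Sham (-0.65) or Male-CCI (-0.57).

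**Figure D4:**
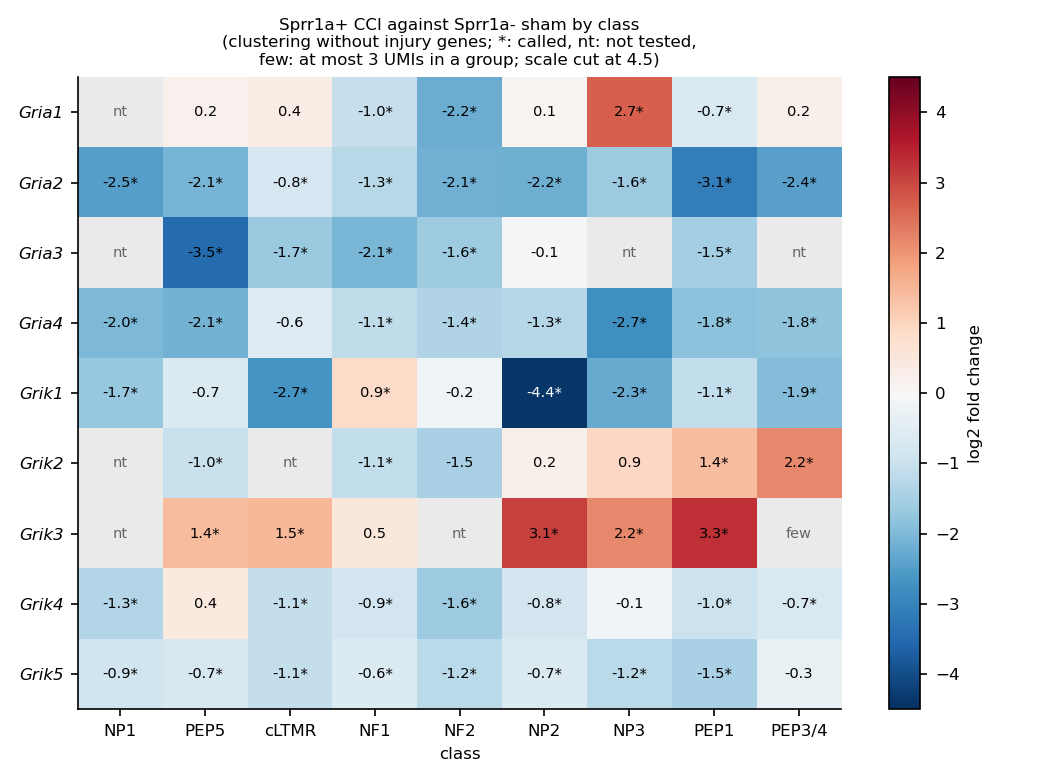
Heat map of the log2 fold change of each gene between Sprr1a+ CCI and Sprr1a- sham neurons in the 9 classes of the clustering without injury genes. The Gria2 row is negative throughout (-0.77 to -3.10), the Grik1 row runs from -4.37 in NP2 to 0.88 in NF1, and Grik3 is positive in the 6 classes with a value. Cells marked nt were not tested and the one marked few had 2 UMIs in a group.

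A joint test over the 9 classes found a difference in the change among classes for all 9 members (edgeR adjusted p of 5.66e-18 for Grik1 to 0.00121 for Gria4), as it did for 73.4% of 14252 genes.

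Sprr1a- neurons were examined in the same way. Between Sprr1a- CCI and Sprr1a- sham neurons of the first clustering, 5 of 77 tested values were called over 10 classes, where the genes called came to 1.04% in NF1, 1.87% in NF2, 3.99% in NP1, 4.41% in NP2, 2.69% in NP3, 5.27% in PEP1, 4.3% in PEP2, 3.49% in PEP3/4, 3.32% in PEP5 and 1.71% in cLTMR. With sex as a replicate block 9 were called, the 4 gained being Gria1 in NF1 (-0.70), Gria2 in NP3 (0.53), Grik2 in NF2 (-2.25, on 2 UMIs in each CCI library) and Grik3 in PEP1 (-1.46, on 3 and 7 UMIs in the CCI libraries). The percentages above belong to the fit without that block, so the 9 cannot be set against them. Gria2 was higher in NF1, at 32.7 and 31.7 CPM against 21.7 and 20.5 CPM (log2 fold change 0.65, SE 0.12, edgeR adjusted p = 0.0213). In PEP1, Gria1 was lower at 6.48 and 7.11 against 10.7 and 11.1 CPM (-0.66, SE 0.11, edgeR adjusted p = 0.00468), the one call that DESeq2 also made (DESeq2 gave no adjusted p for the values in NF1, PEP2 and PEP5). Grik1 was called lower in PEP1 (-0.75), PEP2 (-1.41) and PEP5 (-1.43), at 3.33 to 4.91 CPM in sham. In SGC-like cells Grik1 stood at 10.6 and 15.5 CPM in sham and held only 2 and 3 UMIs in CCI, counts at or under the floor. Over all neurons it went from 153 and 127 to 60.02 and 63.1 CPM. A change in these classes and one in free RNA cannot be told apart here. Each of the 5 calls was lost without at least 1 library. The Gria2 value kept its size (0.63 without Male-CCI, 0.66 without Female-CCI), as did Gria1 (-0.63 without Female-Sham), but the Grik1 values went to -0.63 in PEP1, -0.84 in PEP2 and -0.94 in PEP5 without Male-CCI, and to -0.75 in PEP1 without either sham library, -1.19 in PEP2 and -1.23 in PEP5 without Female-Sham, and -2.21 in PEP5 without Female-CCI.

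Receptor subunits work with partners, which were examined as lists over all neurons between Sprr1a+ CCI and Sprr1a- sham, where 49.8% of genes were called and the median log2 fold change of all genes was -0.01. Both kainate auxiliary subunits rose. Neto1 went from 1.27 and 1.26 CPM to 55.6 and 52.0 CPM (log2 fold change 5.56, SE 0.071, edgeR adjusted p = 3.99e-09) and Neto2 from 20.8 and 20.4 CPM to 39.6 and 38.2 CPM (1.06, SE 0.05, edgeR adjusted p = 6.70e-07). Neto1 was also the single gene of the lists that edgeR called in Sprr1a- neurons, where 4.47% of genes were called. It held 2.53 and 3.76 CPM in CCI against 1.27 and 1.26 CPM in sham (1.30). The Sprr1a- CCI neurons included 28 and 47 cells of the CCI-induced class (Male-CCI and Female-CCI), and their part in this value was not tested. Neto proteins slow the gating of kainate receptors.

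Of 14 AMPA auxiliary subunits 12 were called, 11 lower and 1 higher, with a list median of -1.07. Shisa9, which encodes a protein that speeds desensitization of AMPA receptors, was the one that rose, from 0.520 and 0.801 CPM to 14.1 and 14.3 CPM (log2 fold change 4.55, SE 0.17, edgeR adjusted p = 8.85e-07). Cacng3 (-2.88) and Cacng5 (-1.73), which encode transmembrane AMPA receptor regulatory proteins, were among the 11 that fell. Of the RNA editing genes, Adarb1, whose enzyme edits the Gria2 Q/R site, rose from 20.4 and 16.2 CPM to 83.9 and 82.4 CPM (2.33, SE 0.10, edgeR adjusted p = 4.51e-06), and Adarb2 was called lower, with 1 and 2 UMIs against 136 and 164. Whether Gria2 was edited cannot be read from these data.

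Of the 15 scaffold and trafficking genes 7 were called, 2 higher and 5 lower (list median -0.27): Grip2 (2.45) and Homer3 (1.46) rose and Shank1 fell (-3.67). Of 7 NMDA and delta subunit genes tested 6 were called, 4 lower and 2 higher, Grin2d (-2.61) falling and Grin2a rising from 5 UMIs in each sham library to 16 and 12, and all 5 called of 6 metabotropic receptor genes were lower (list median -2.22), with Grm8 at -2.33. Among 8 glutamate supply genes 5 were called, 1 higher and 4 lower, including Slc17a8, the gene of a vesicular glutamate transporter of cLTMRs, at -4.57 and Slc17a7 at -1.88. Over all neurons regardless of state, CCI against sham (27.8% of all genes called) called 5 of 7 NMDA and delta, 5 of 14 AMPA auxiliary, 2 of 2 kainate auxiliary, 4 of 15 scaffold, 2 of 3 editing, 3 of 6 metabotropic and 1 of 8 supply genes, with Neto1 (4.29), Shisa9 (3.48) and Adarb1 (1.48) the largest rises of their lists. Within the CCI libraries the 7 lists gave 6 of 7, 12 of 14, 2 of 2, 8 of 15, 2 of 3, 5 of 5 and 4 of 8 calls between Sprr1a+ and Sprr1a- neurons, where 45.5% of all genes were called.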

How the data were processed

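The authors sorted GFP+ cells and deposited filtered 10x Chromium 3′ v3 matrices of UMI counts per gene and cell for mm10, not normalized. The processing notes name Cell Ranger 2.1.1 and the file headers 3.0.2. The members, the gene lists and the classes were chosen with earlier results of these data known.

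Cells with at least 1500 genes and at most 10% mitochondrial UMIs were kept, and the cells with the highest Scrublet scores (scanpy 1.11.5) were removed as doublets in the number the study gives per library. These were 837 and 1381 cells of Male-Sham and Female-Sham and 601 and 912 of Male-CCI and Female-CCI. The automatic Scrublet threshold called 2, 121, 0 and 0 in the same order, so most removed cells were not called doublets by it. Libraries were integrated with Seurat 5.3.0, with the members and listed genes left out of the clustering. Clusters were named from marker lists, and a name needs 3 markers. Counts were summed per library, class and Sprr1a state (positive above 1 on the natural-log scale after scaling to 10000 UMIs per cell), with at least 10 cells in every library. Sums were tested with edgeR 4.0.16 (quasi-likelihood, TMM, filterByExpr), Sprr1a left out. SEs were derived from the F statistic. A call needed a Benjamini-Hochberg adjusted p below 0.05 over all genes and a log2 fold change beyond 0.5. DESeq2 1.42.0 was an alternative. Printed CPM use raw totals. All 9 members are named, and of each other list up to 3 called genes of largest change. In tests on simulated data edgeR recovered more changes than DESeq2 and also called more unchanged genes. Where leaving out a library left 1 in a group, that library is assumed to vary like the others. Sequences were read from GENCODE M21 transcripts, and their GRCm38 positions from the exons. Some genes of the marker lists and of the named genes are not reported here, and the SGC marker sums leave them out.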

Additional observations from a re-analysis of the deposited data

Results flagged for a closer look

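The change between Sprr1a+ CCI and Sprr1a- sham neurons was compared between classes by a test of the difference itself, which called 4 of 27 member differences where 14% (NF2 and NF1), 27.7% (NP1 and NF1) and 21.3% (NP1 and NF2) of all genes were called, so the members' count is no higher than that of other genes. In the 3 classes of the first clustering, the log2 change of Grik1 in NF2 minus that in NF1 was -1.23 (edgeR adjusted p = 0.0314) and in NP1 minus NF1 -2.62 (edgeR adjusted p = 0.000419). The rise of Grik1 in NF1 was lost with doublets kept. Gria2 differed between NP1 and NF1 (-1.31, edgeR adjusted p = 0.00611), and so did Grik2 (2.22, edgeR adjusted p = 0.0341), with 5 UMIs of Grik2 in the Sprr1a- sham NP1 neurons. DESeq2 called 1 of these 4.

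Over the 9 classes of the clustering without injury genes, a joint edgeR test of any difference in the change gave adjusted p of 1.04e-08 for Gria1, 1.47e-05 for Gria2, 5.60e-05 for Gria3, 0.00121 for Gria4, 5.66e-18 for Grik1, 7.72e-07 for Grik2, 7.07e-06 for Grik3, 1.67e-07 for Grik4 and 3.47e-06 for Grik5. Among all 14252 genes 73.4% passed this test, so passing it is common. Of 36 pairs of classes, Gria1 and Grik1 differed in 21 each and Gria3, the least, in 7, where 10.2% to 39.4% of all genes were called per pair (median 21.9%).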

How the results depend on the processing

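Of 2920 single-gene values under alternatives, 2790 kept their side of the threshold (98 of them uncalled values whose sign changed), 102 lost the call, 25 gained one and 3 reversed. The 3 were Gria2 in NF1 with any Sprr1a UMI counted as positive (0.0703) and Grik1 in NF1 with doublets kept, against sham (-0.33) and within CCI libraries (-0.15). The cause was not tested. By number of calls, any Sprr1a UMI gave 11 in place of 18 for Sprr1a+ CCI against Sprr1a- sham by class, 1 in place of 0 for Sprr1a- neurons, 3 in place of 5 for Sprr1a- neurons by class, and 3 within CCI libraries by class, where 2 classes remained that gave 9 before. For Sprr1a- neurons by class DESeq2 gave 1, no low-count filter 9 and the replicate block (sex) 9. DESeq2 gave 8 in place of 14 within CCI libraries by class and 1 in place of 4 differences between classes. Leaving out 1 library gave 3 to 4 calls over all neurons, 14 to 16 by class and 2 to 5 in Sprr1a- neurons by class, and 49 to 54 of 58 in the clustering without injury genes, and moved the Gria2 share difference between -2.5 and 0.25 points. No library could be left out within CCI libraries. The replicate block gave 4, 7, 18 and 58 calls over all neurons, in Sprr1a+ neurons, by class and without injury genes, and without the block there were 13 within CCI libraries by class. Same-numbered libraries were matched by sex. Their deviations correlated at 0.564 over 17241 genes and at 0.299 over 17235 genes, after a few sex-linked genes were left out. What else these libraries share was not tested. The alternatives without cells sharing a barcode, without SGC-marked clusters and the tests on the clustering without injury genes were chosen after seeing the data.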
